A study of Mus musculus with 29 samples.

Results

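Expression of 10 genes of the basement membrane was followed in mouse hearts through heart failure (HF) and recovery: the collagen IV chains Col4a1, Col4a2, Col4a3, Col4a4 and Col4a5, the collagens Col15a1 and Col18a1, the nidogens Nid1 and Nid2, and Hspg2, which encodes perlecan. The genes were taken by symbol from a table of 29955 genes; the rule used no values, but the genes were chosen with earlier results of these data known. All 10 were found, and 9 passed the filter of a mean of at least 0.5 FPKM that 12759 genes of the table passed; Col4a3, with a mean of 0.232 FPKM, did not and was described without a test. FPKM are fragment counts divided by transcript length and by the size of the library, so levels of different genes can be set side by side per transcript length.

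HF was induced in male C57BL6 mice (C57BL/6J in the methods), 3 months old at the start, with 0.3 mg/ml L-NAME, which blocks nitric oxide synthase, and 1% NaCl in the drinking water for 5 weeks, and with 0.7 mg/kg/day angiotensin II, a vasoconstrictor peptide, from a 28-day osmotic pump implanted after 1 week. Water was then returned to normal and the pump ran out. The libraries used were 2 of HF week 3 and 3 of HF week 5, taken during or at the end of induction, 2 of Recovery week 7, 2 of week 9, 3 of week 11, 2 of week 13 and 5 of week 19, and 5 of Control week 19 from mice of the same strain that had no induction, weeks being counted from the start. Controls of week 19 were matched in age to Recovery week 19, and against every other group a difference by treatment and a difference by age cannot be told apart. The labels name whole heart and whole ventricle, whereas the methods name frozen apical portions. Nothing ties a library to a single labelled animal or cohort, so the p-values below measure the spread between these libraries.

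Basement membranes are thin sheets of extracellular matrix that surround each cardiomyocyte and underlie the endothelium of vessels. Collagen IV chains assemble into trimers that link into a network, laminins form another network, and nidogens and perlecan bind both and join them. In the heart the collagen IV trimer is chiefly built of the α1 and α2 chains. Collagens XV and XVIII carry glycosaminoglycan chains, sit at the border of the basement membrane with the interstitial matrix, and release the fragments restin and endostatin, which are known to restrain vessel growth.

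Col4a1 and Col4a2 lie head to head and are known to be transcribed in opposite directions from a common promoter. Their promoter sequences are shown because these are the 2 members whose levels followed each other most closely, as described below. The windows, from 250 bases before to 50 bases from the annotated start, are those of RefSeq on GRCm38.p6, a later build than the one the reads were aligned to, and each is printed 5′ to 3′ on the strand of its gene. Capitals mark the 78 bases that both windows hold, chr8:11312777-11312854, which include both annotated starts. The Col4a1 window is chr8:11312777-11313076 on the minus strand and the Col4a2 window chr8:11312555-11312854 on the plus strand.
Col4a1: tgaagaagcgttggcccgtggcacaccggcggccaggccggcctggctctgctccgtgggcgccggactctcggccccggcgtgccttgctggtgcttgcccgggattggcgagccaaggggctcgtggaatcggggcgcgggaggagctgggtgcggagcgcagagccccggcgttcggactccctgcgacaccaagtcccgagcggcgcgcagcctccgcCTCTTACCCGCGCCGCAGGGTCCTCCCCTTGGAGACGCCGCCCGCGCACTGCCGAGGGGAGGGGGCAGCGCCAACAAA
Col4a2: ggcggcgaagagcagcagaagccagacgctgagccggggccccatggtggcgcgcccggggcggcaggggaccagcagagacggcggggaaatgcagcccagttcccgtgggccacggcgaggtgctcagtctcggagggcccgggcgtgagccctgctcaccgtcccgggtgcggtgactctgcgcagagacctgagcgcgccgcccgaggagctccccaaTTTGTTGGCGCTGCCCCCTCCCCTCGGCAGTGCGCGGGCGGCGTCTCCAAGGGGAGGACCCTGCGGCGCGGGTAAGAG
The annotated starts, 11312826 for Col4a1 and 11312805 for Col4a2, leave 22 bases that both transcripts hold, and since the strand of the libraries is not given, fragments from these bases cannot be assigned to one gene. The GC box GGGCGG, searched on both strands, occurred 1 time in the shared bases, 1 time in the Col4a1 window and 3 times in the Col4a2 window, and 35.7% of all 32851 windows of this length hold it. The letters CCAAT, searched likewise, occurred 1 time in each of both windows, with none lying wholly within the shared bases, and in 37.4% of all windows. Of the 10 genes, 8 had a window in the table, and none of their 9 windows held TATAAA, which 13.6% of all windows hold. The perlecan gene Hspg2 had the most GC boxes of the 9 windows, 5.

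The order of the levels was taken from the control hearts. Hspg2 was highest, with 72.5 ± 1.61 FPKM (SD, n = 5), and its lowest control library, 69.7, lay above the highest of Col4a1, 54.0. Col4a1 and Col4a2 followed with 49.0 ± 3.82 and 40.3 ± 6.21 FPKM, and their ranges of 44.0 to 54.0 and 30.1 to 45.4 overlapped. Nid1 (13.8 ± 0.789) and Col15a1 (12.9 ± 0.576) were next and overlapped each other. Col18a1 (2.55 ± 0.408), Nid2 (2.43 ± 0.399) and Col4a5 (2.25 ± 0.276) could not be ordered, since their libraries overlapped as well. A pair of chains known best from the collagen IV of kidney came last, with 0.419 ± 0.138 FPKM for Col4a4 and 0.154 ± 0.0762 for Col4a3.

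**Figure D1:**
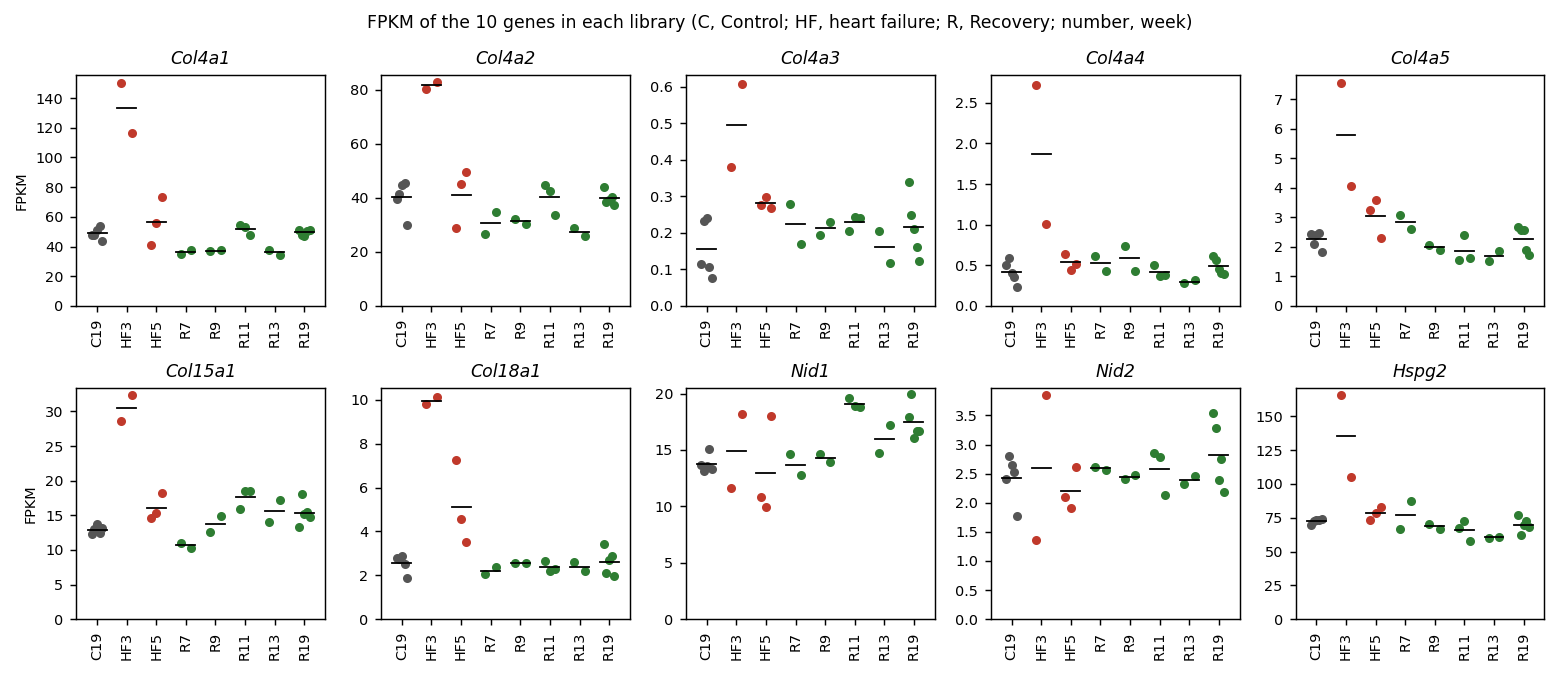
FPKM of each of the 10 genes (vertical axis of each panel, linear and from 0) in every library, by group (horizontal axis: C, Control; HF, heart failure; R, Recovery; the number is the week). Points are libraries and bars are group means. Both HF week 3 libraries lie above every other library for 7 of the 9 genes tested and for Col4a3, and Col18a1 is the gene whose HF week 5 libraries stand farthest above the controls in fold.

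Most of these genes were highest at HF week 3. At an adjusted p under 0.05 in limma, 7 of the 9 genes tested exceeded their level in Control week 19: all 4 collagen IV chains tested, Col15a1, Col18a1 and Hspg2. Nid1 and Nid2 did not pass. Col4a4 was kept by the filter only through HF week 3, where it was high, so the filter favoured its call. Over all genes tested 50.7% were called in this comparison, 23.1% as higher. The median log2 fold change was 1.14 over the 9 genes and -0.05 over all genes tested.

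The HF week 3 group has only 2 libraries, and one of them stands apart. In library 1 only 12816 genes were above 0, where the remaining 23 libraries had 16339 to 18091, and it showed none of the steps between low values that gave the relative depth of the others, 0.727 to 1.39. The fold changes of the members at week 3 are therefore also given without it where they could be tested, whereas the counts of markers and of other basement membrane genes include it. Atrial, mesothelial and adipocyte genes were high in both libraries, as described with HF week 5. The cardiomyocyte gene Myh6 is listed at 37546 and 301793 FPKM in HF week 3 and at 0 in HF week 5 and control. The 10 highest genes held 19.8% and 37.5% of all FPKM in HF week 3, against 14.6% to 18.8% in the libraries with Myh6 at 0. Both comparisons of HF week 3, with control and with HF week 5, cross this difference between libraries.

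Col4a1 encodes the chain that forms most collagen IV trimers together with that of Col4a2. Its level was 150.1 and 117 FPKM in the 2 HF week 3 libraries, against 48.1, 47.6, 51.2, 54.0 and 44.0 in control. Both lay above each of the 22 libraries outside week 3, the highest of which had 73.3. The log2 fold change, on the log2(FPKM + 0.5) scale of all fold changes here, was 1.43 (SE 0.153, adjusted p = 8.9e-07), and without library 1 it was 1.25 (adjusted p = 0.000106).

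Col4a2 had 80.5 and 82.9 FPKM in HF week 3 and 39.6, 41.4, 45.0, 45.4 and 30.1 in control. The libraries of week 3 lay close together for this gene, and the highest of the 22 others had 49.6. On the log2 scale the fold change was 1.02 (SE 0.182, adjusted p = 0.000161), and 1.05 without library 1 (adjusted p = 0.00321).

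Col4a5, which pairs with other chains in trimers of specialised basement membranes, had 7.54 and 4.05 FPKM in HF week 3 and 2.45, 2.10, 2.40, 2.48 and 1.84 in control. The 2 libraries of week 3 differed from each other by more than the whole range of the controls. For Col4a5 the log2 fold change was 1.14 (SE 0.211, adjusted p = 0.000233) and 0.73 without library 1 (adjusted p = 0.0235).

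Col4a4 was far lower in all groups, with 2.72 and 1.01 FPKM in HF week 3 against 0.505, 0.589, 0.410, 0.361 and 0.228 in control. Its 2 values in week 3 again lay far apart, library 1 being the higher. The log2 fold change of 1.28 (SE 0.231, adjusted p = 0.000192) understates the fold at this level, since the pseudocount of 0.5 is as large as the control values. Without library 1 the mean of Col4a4 fell under the filter and it was not tested. Col4a3, which was not tested, had 0.381 and 0.607 FPKM in HF week 3, between 0.0771 and 0.240 in control, and at most 0.339 in any library outside week 3. A level this low rests on few fragments, and the absolute depth is unknown.

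Col15a1 had 28.6 and 32.3 FPKM in HF week 3 against 12.3, 13.01, 13.7, 12.5 and 13.2 in control. The controls spread little, and no library outside week 3 exceeded 18.5. Against control this was 1.20 on the log2 scale (SE 0.124, adjusted p = 5.72e-07) and 1.29 without library 1.

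Col18a1, the gene of the endostatin precursor, had the largest of the 9 log2 fold changes on this scale. It had 9.79 and 10.1 FPKM in HF week 3 and 2.77, 2.73, 2.88, 2.52 and 1.86 in control, without overlap. In log2 terms the change was 1.79 (SE 0.209, adjusted p = 2.26e-06) and 1.81 without library 1.

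Hspg2 encodes perlecan, a large heparan sulfate proteoglycan that binds growth factors. It had 166 and 105 FPKM in HF week 3 and 69.7, 72.6, 73.2, 73.1 and 73.9 in control, so that library 1 set much of the mean. The log2 fold change was 0.86 (SE 0.142, adjusted p = 8.82e-05) and 0.53 without library 1 (adjusted p = 0.00836).

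The nidogens, which link the laminin and collagen IV networks, gave another picture. Nid1 had 11.6 and 18.2 FPKM in HF week 3 and 13.7, 13.1, 13.6, 15.1 and 13.3 in control, with library 1 below all controls and library 2 above them. Nid2 had 1.36 and 3.85 FPKM in HF week 3 and 2.41, 2.81, 2.64, 2.53 and 1.77 in control, with the same order of the libraries. The 95% intervals of the log2 fold changes were -0.29 to 0.45 for Nid1 and -0.53 to 0.46 for Nid2. Changes within these bounds, in either direction, were not excluded. Without library 1 they were 0.39 (adjusted p = 0.151) and 0.58 (adjusted p = 0.0502). Without library 2 they were -0.23 (adjusted p = 0.332) and -0.65 (adjusted p = 0.0146), so that Nid2 was then called lower.

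For 7 of the 9 genes both HF week 3 libraries lay above each of the 22 other libraries, which was so for 6.67% of all genes tested. Col4a4, kept by the filter only through that week, is among the 7. The calls against control held under all 13 alternative analyses for 6 of these genes, the one without library 1 among them, and under the 12 in which Col4a4 could be tested. In bulk tissue more cells of a type and more RNA per cell cannot be told apart. Of the endothelial markers 8 of 10 were called higher than in control and 1 lower at HF week 3, and their summed level was 912 to 956 FPKM against 414 to 527. Fibroblast markers were called higher in 6 of 9 genes and lower in 0, with sums of 744 to 752 FPKM against 255 to 363. Of 9 markers of pericytes and smooth muscle 4 were higher and 1 lower, with sums of 229 to 236 FPKM against 148 to 179. Of the cardiomyocyte markers 4 of 8 were lower, with a median log2 fold change of -0.54 over the list. The further call of Myh6 is no measured rise, since this gene is listed at 0 in every control library. The part of these cells in the rise of the 7 genes was not tested.

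**Figure D2:**
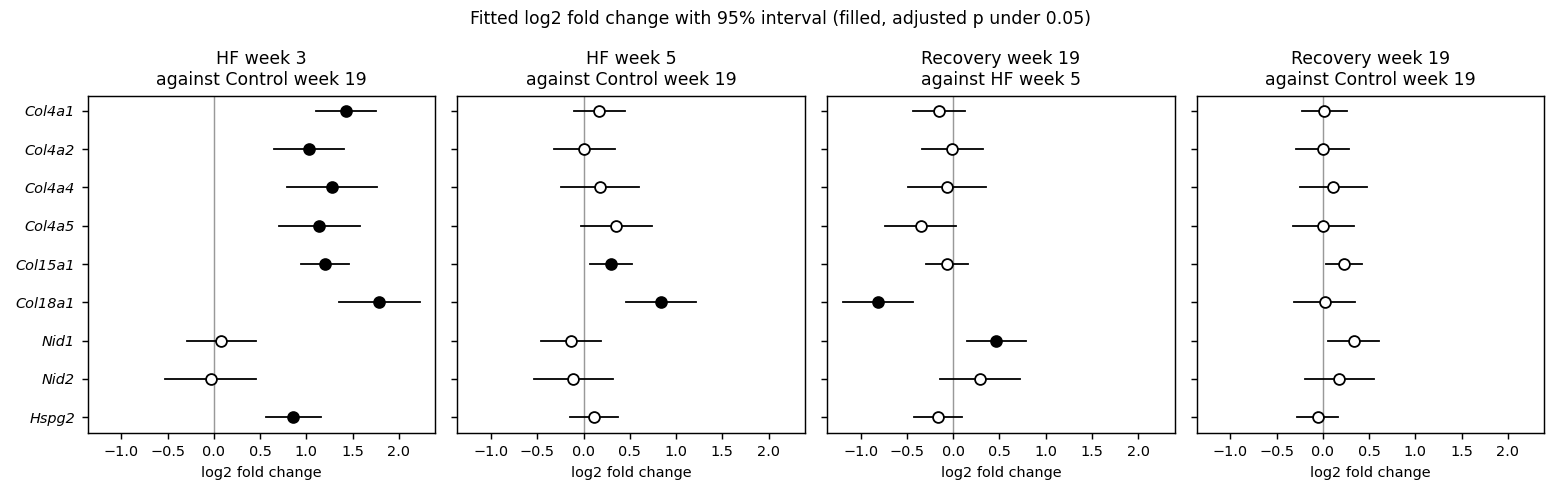
Fitted log2 fold changes (horizontal axis, on log2(FPKM + 0.5)) with 95% intervals for the 9 genes tested, in 4 comparisons; filled points have an adjusted p under 0.05. At HF week 3, 7 genes lie between 0.86 and 1.79; at HF week 5 only Col15a1 (0.30) and Col18a1 (0.84) are filled; in Recovery week 19 against control all points are open.

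By HF week 5, the end of induction, the levels were near those of control for most of these genes. Only Col18a1 and Col15a1 were called higher than in Control week 19, 2 of 9, where 24.0% of all genes tested were called and 11.6% as higher. The count at an unadjusted p under 0.05 was also 2, where 36.5% of all genes passed. Median log2 fold changes were 0.17 over the 9 genes and 0.04 over all genes.

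Col18a1 had 7.26, 4.57 and 3.50 FPKM in the 3 HF week 5 libraries, all above the highest control of 2.88. For Col18a1 the log2 fold change was 0.84 (SE 0.182, adjusted p = 0.0031). The gene held its call in 18 of 19 alternative analyses; with HF week 5 library 3 alone, which was assumed to vary like the other groups, the log2 fold change was 0.40 (adjusted p = 0.353).

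Col15a1 had 14.6, 15.4 and 18.3 FPKM in HF week 5, likewise above every control (12.3 to 13.7). The log2 fold change was small, 0.30 (SE 0.108, adjusted p = 0.0494), and the call held in only 7 of 19 alternative analyses. Leaving out any 1 of the 5 control libraries ended it, as did leaving out any of the HF week 5 libraries. Over the 19 analyses the log2 fold change of Col15a1 stayed between 0.17 and 0.48, so it kept its direction throughout. All HF week 5 libraries lay above all controls for these 2 of 9 genes and for 14.8% of all genes tested.

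Col4a1 in HF week 5 had 40.9, 55.8 and 73.3 FPKM, that is one library below, one just above and one far above the control range of 44.0 to 54.0. Its log2 fold change was 0.17 (95% interval -0.11 to 0.45, adjusted p = 0.375), and with library 3 alone it was 0.58. Col4a1 was called in 2 of 19 alternative analyses. Col4a2 had 28.8, 45.0 and 49.6 FPKM in the same order of libraries and a log2 fold change of 0.01. Its 95% interval was -0.32 to 0.34.

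Of the remaining genes Col4a5 came nearest to a call in HF week 5, with 3.25, 3.59 and 2.32 FPKM and a log2 fold change of 0.36 (adjusted p = 0.169). Col4a4 (0.638, 0.444 and 0.521 FPKM), Nid2 (2.09, 1.91 and 2.62) and Hspg2 (73.5, 78.2 and 83.3) had log2 fold changes of 0.18, -0.11 and 0.11. Nid1 had 10.8, 9.90 and 18.04 FPKM, with 2 libraries below and 1 above all controls, and a log2 fold change of -0.13 (adjusted p = 0.564). Without library 3 it was -0.39 (adjusted p = 0.0468), a call, and with library 3 alone 0.38 (adjusted p = 0.251). Col4a3 had 0.277, 0.298 and 0.269 FPKM, above the highest control library of 0.240.

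The 3 HF week 5 libraries differ in genes known from atria, mesothelium and adipose tissue. The atrial genes Myl7, Myl4 and Sln summed to 39727 FPKM in library 1, 415 in library 2 and 15.5 in library 3, against 3.04 to 13.4 in the 19 recovery and control libraries. In HF week 3 the sums were 7737 and 14050 FPKM. The atrial list holds these 3 genes and Nppa, a gene of ventricles under load as well; all 4 were called higher in HF week 5 than in control, and the 3 in HF week 3, where Nppa is listed at 0. With Nppa the sums were 2229 to 81731 FPKM in HF week 5, 89.6 to 349 in control and 173 to 2435 in recovery.

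Mesothelial and adipocyte genes went with them. Upk3b and Msln, 2 of the 3 mesothelial markers, summed to 55.1, 18.3 and 5.67 FPKM in HF week 5, 33.9 and 152 in HF week 3, and at most 0.830 in recovery and control. The adipocyte genes Adipoq and Cfd, 2 of the 3 listed, summed to 225, 205 and 1.33 FPKM in HF week 5, 208 and 92.8 in HF week 3, and at most 1.04 in the other groups. Of the 3 mesothelial markers 2 were called higher in each HF group than in control, as were both adipocyte markers tested. Over the whole lists the mesothelial sum was 8.94 to 59.4 FPKM in HF week 5 and 0.994 to 3.28 in recovery and control, and the adipocyte sum 1.37 to 227 FPKM and at most 1.12.

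Col18a1 fell from library 1 to library 3 of HF week 5 in the order of the atrial and mesothelial sums. Col4a1, Col4a2, Col15a1 and Hspg2 had the reverse order: library 1, with the highest sum of atrial genes, had less Col4a1 (40.9 FPKM) and Col4a2 (28.8) than any control. Nid1 was low in libraries 1 and 2 and high in library 3. Col18a1 in library 3, where the atrial genes were near the highest level of the other groups, was 3.50 FPKM, against a highest value of 3.42 in any recovery or control library. Endothelial markers were called higher than in control at HF week 5 in 6 of 10 genes, with sums of 572 to 809 FPKM. Of the fibroblast markers 6 of 9 were higher (361 to 711 FPKM), and of those of pericytes and smooth muscle 5 of 9 were higher and 1 lower (204 to 303 FPKM); the control sums are given above with HF week 3. The part of these cells and of atrial, mesothelial or adipose tissue in the differences of HF week 5 was not tested.

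**Figure D3:**
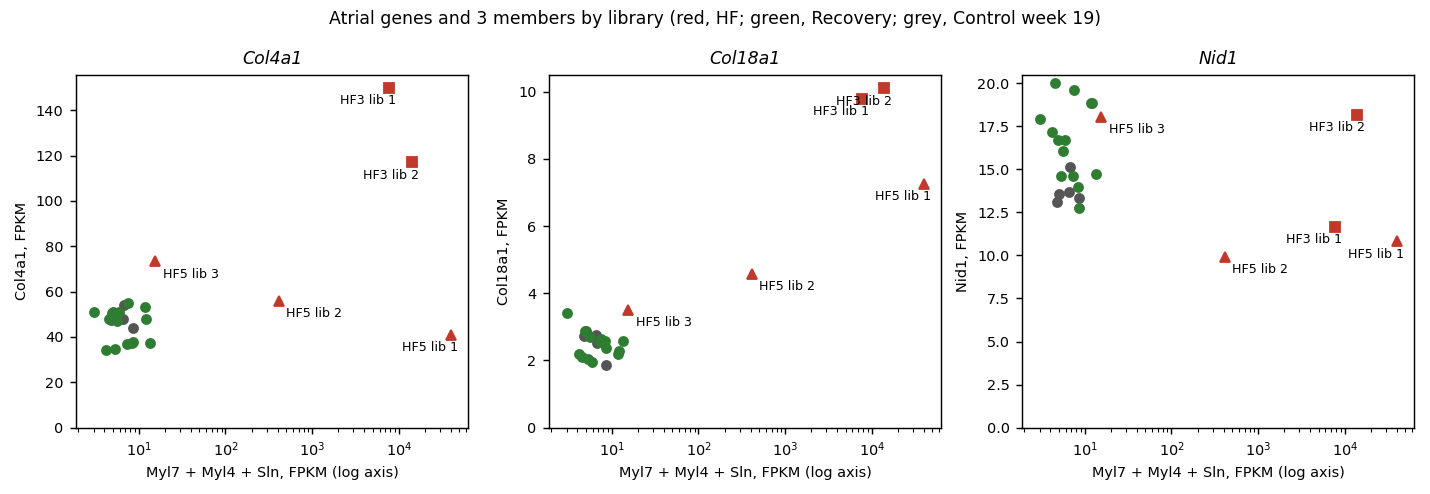
FPKM of Col4a1, Col18a1 and Nid1 (vertical axes, linear) against the summed FPKM of the atrial genes Myl7, Myl4 and Sln (horizontal axis, log scale) in each of the 24 libraries; squares are HF week 3, triangles HF week 5, green circles Recovery and grey circles Control week 19. Among the HF week 5 libraries Col18a1 is highest (7.26) and Col4a1 lowest (40.9) where the atrial sum is highest, 39727.

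The difference between HF week 3 and HF week 5, groups that also differ in Myh6 as described above, was tested directly. The same 7 of 9 genes were higher in HF week 3, where 21.4% of all genes were called and 8.28% as higher in week 3. Log2 fold changes were 1.26 for Col4a1 (SE 0.167, adjusted p = 0.000206), 1.02 for Col4a2, 1.10 for Col4a4, 0.79 for Col4a5, 0.90 for Col15a1, 0.95 for Col18a1 and 0.75 for Hspg2. Without HF week 3 library 1 only Col4a1, Col4a2 and Col15a1, 3 of them, were called, Col4a4 no longer passing the filter. The log2 fold changes of Col4a5 and Hspg2 were then 0.38 (adjusted p = 0.629) and 0.42 (adjusted p = 0.22), whereas that of Col18a1 was 0.98 (adjusted p = 0.124). With HF week 5 library 3 alone 4 were called. Col4a1 and Col15a1 were called in all 12 alternative analyses of this comparison. Nid1 and Nid2 had log2 fold changes of 0.22 and 0.08 and were not called.

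In the first weeks of recovery Col4a1 lay below every control library. At Recovery week 7 Col4a1 had 34.7 and 37.7 FPKM, Col15a1 11.1 and 10.3 and Col18a1 2.04 and 2.37. For Col4a1 and Col15a1 both libraries were below every HF week 5 and every control library. The share of all genes with such a gap was not counted, here or at weeks 9, 11 and 13. Against HF week 5 the 3 genes were called lower, with log2 fold changes of -0.60 (adjusted p = 0.0222), -0.57 (adjusted p = 0.00972) and -1.0 (adjusted p = 0.00743); 14.8% of all genes were called, and 6.75% as lower. Against control 0 of 9 were called in limma after adjustment, where 0.0470% of all genes were, and 3 were lower at an unadjusted p under 0.05, where 2.17% of all genes were: Col4a1, Col4a2 and Col15a1.

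At Recovery week 9 Col4a1 had 36.7 and 37.5 FPKM, again below every control, and Col18a1 2.54 and 2.57, within the control range. Both were called lower than in HF week 5, with log2 fold changes of -0.56 (adjusted p = 0.0482) and -0.82 (adjusted p = 0.0373), where 6.57% of all genes were called and 2.49% as lower. No gene was called against control after adjustment, where 0.0549% of all genes were, and 1, Col4a1, was lower at an unadjusted p under 0.05, as were 1.61% of all genes.

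At week 11 Col4a1 was higher than in the weeks around it, a difference that was not tested. Col4a1 had 54.8, 53.3 and 47.9 FPKM, above all 6 libraries of weeks 7, 9 and 13, which had 34.4 to 37.7. Col15a1 had 15.9, 18.5 and 18.5 FPKM and Nid1 19.6, 18.9 and 18.8, both above every control library. Fibroblast markers were higher than control in 1 of 9 genes after adjustment and in 7 at an unadjusted p under 0.05, with sums of 413 to 681 FPKM against 255 to 363. Of 6 markers of macrophages and leukocytes 0 passed after adjustment and 4 were higher at the unadjusted p in limma (183 to 281 FPKM against 90 to 168), and the part of these cells was not tested. Against HF week 5, where 9.77% of all genes were called, Col18a1 (2.63, 2.20 and 2.27 FPKM) was lower by a log2 fold change of -0.92 (adjusted p = 0.00902) and Nid1 higher by 0.59 (adjusted p = 0.0355). With HF week 5 library 3 alone the log2 fold changes were -0.48 and 0.08. Col18a1 held its call in 11 of 14 alternative analyses and Nid1 in 7 of 14. Against control 0 of 9 were called and 0.149% of all genes were. At an unadjusted p under 0.05 in limma 2 were higher, where 4.89% of all genes were. These were Col15a1 (log2 fold change 0.43, unadjusted p = 0.000727, adjusted p = 0.129) and Nid1 (0.46, adjusted p = 0.304). With libraries rescaled without their 10 highest genes, as described below, the log2 fold changes were 0.27 and 0.30.

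At Recovery week 13 Col4a1 had 37.5 and 34.4 FPKM and Col4a2 28.9 and 25.7, below every control library of either gene. Against HF week 5, where 10.4% of all genes were called and 5.27% as lower, Col4a1 (log2 fold change -0.61, adjusted p = 0.0266) and Col18a1 (-0.91, adjusted p = 0.017) were lower. Centring each library on its median moved the median of all genes by 0.10 in this comparison, and relative to it the log2 fold changes were -0.51 (adjusted p = 0.0769) and -0.80 (adjusted p = 0.0195). Against control 0 of 9 were called, where 0.0784% of all genes were, and Col4a1 and Col4a2 were the 2 that were lower at an unadjusted p under 0.05, as were 6.25% of all genes. At that p 5 of 9 were lower than in HF week 5, where 13.8% of all genes were.

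The calls against HF week 5 at weeks 7 to 13 were lost in several alternative analyses. With HF week 5 library 3 alone Col18a1 was not called at weeks 7, 9 and 13 (log2 fold changes -0.57, -0.39 and -0.47), and leaving out either recovery library of week 7, 9 or 13 ended every call of that week, while the log2 fold changes stayed between -1.09 and -0.52. Endothelial markers were called lower than in HF week 5 in 6, 3, 4 and 4 of 10 genes at weeks 7, 9, 11 and 13, fibroblast markers in 3, 1, 0 and 1 of 9, and those of pericytes and smooth muscle in 3, 3, 3 and 4 of 9, with 1 higher at week 7. Of the 4 atrial genes 3 or 4 were lower at each of these weeks, and the part of these cells and tissues was not tested. Myh6, the gene of α-myosin heavy chain and a defining gene of cardiomyocytes, is listed at 0 in all 13 libraries of both groups of week 19 and of HF week 5 and at 37546 to 316195 FPKM in the other 11. The 10 highest genes held 27.9% to 37.4% of all FPKM in weeks 7 to 13 and 14.6% to 18.8% in the 13 libraries without Myh6. When the libraries were rescaled without their 10 highest genes, an analysis chosen after seeing the data, 0 of the 9 genes were called against HF week 5 at any of weeks 7, 9, 11 and 13. The log2 fold changes of the genes called before kept their sign: at week 7 Col4a1 and Col15a1 were at -0.37 (adjusted p = 0.291) and -0.34 (adjusted p = 0.231), nearer to 0 than before, and at week 13 Col4a1 and Col18a1 were at -0.78 (adjusted p = 0.0596) and -1.05 (adjusted p = 0.0665), farther from 0.

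Recovery week 19 was compared with HF week 5 for the change over the whole of recovery. Col18a1 fell to 3.42, 2.11, 2.71, 2.90 and 1.96 FPKM, all below the lowest HF week 5 library (3.50). Its log2 fold change was -0.81 (SE 0.182, adjusted p = 0.00369), and with HF week 5 library 3 alone it was -0.38 (adjusted p = 0.38). Nid1 rose, with 17.9, 20.0, 16.1, 16.7 and 16.7 FPKM against 10.8, 9.90 and 18.04, and the high HF library lay within the recovery range. Its log2 fold change was 0.47 (SE 0.154, adjusted p = 0.0329). With HF week 5 library 3 alone it was -0.05 (adjusted p = 0.924), and without library 2 it was 0.31 (adjusted p = 0.188). The call was also lost without HF week 5 library 1 (0.37) and without Recovery week 19 library 1 (0.46) or 2 (0.42).

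These 2 of 9 calls compare with 24.2% of all genes in that comparison. The other 7 genes had log2 fold changes of -0.35 (Col4a5) to 0.29 (Nid2) and were not called. Col4a1, at -0.16 (adjusted p = 0.423), was at -0.56 (adjusted p = 0.037) with HF week 5 library 3 alone and at -0.37 (adjusted p = 0.0472) without library 1, a call in both. In this comparison 5 of 10 endothelial and 3 of 9 fibroblast markers were called lower, and of 9 markers of pericytes and smooth muscle 6 were lower and 2 higher. All 4 genes of the atrial list, the 3 mesothelial genes and both adipocyte genes tested were lower too, and the part of these cells and tissues was not tested. The median over the 9 genes was -0.07 and over all genes -0.04.

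Against the age-matched controls, 0 of the 9 genes were called in Recovery week 19 in limma, where 0.0235% of all genes were, and 2 were higher at an unadjusted p under 0.05, Nid1 and Col15a1, where 2.01% of all genes were. Col4a1 had 51.1, 47.7, 46.9, 50.5 and 51.1 FPKM, within the control range of 44.0 to 54.0, and a log2 fold change of 0.02 with a 95% interval of -0.23 to 0.26. Col4a2, Col18a1 and Hspg2 had log2 fold changes of -0.002, 0.02 and -0.06, with intervals of -0.29 to 0.28, -0.31 to 0.35 and -0.28 to 0.17. These intervals bound the difference from control, which at this number of libraries cannot be put nearer to 0.

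Nid1 was the one gene of the 9 whose 5 Recovery week 19 libraries (16.1 to 20.0 FPKM) all lay above the 5 controls (13.1 to 15.1), which was so for 0.925% of all genes tested. Its log2 fold change was 0.33 (95% interval 0.05 to 0.61, unadjusted p = 0.0218) with an adjusted p of 1 in limma. Col15a1 had 13.4, 18.1, 15.1, 15.4 and 14.8 FPKM, with 1 library inside the control range, and a log2 fold change of 0.23 (unadjusted p = 0.0217). At the unadjusted p 3 of 9 fibroblast markers (sums of 315 to 464 FPKM) and 4 of 6 markers of macrophages and leukocytes (136 to 312 FPKM) were higher as well, none after adjustment in limma, and their part was not tested. Nid2 (3.54, 3.28, 2.39, 2.75 and 2.18 FPKM) and the low chains Col4a4 (0.392 to 0.614 FPKM) and Col4a3 (0.124 to 0.339) overlapped control, as did Col4a5 (1.72 to 2.67).

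Ratios of 2 genes within a library do not depend on how the library was scaled. Col4a1 to Col4a2 was 1.87 and 1.41 in HF week 3 and 1.26 ± 0.111 (SD, n = 22) in the others, with a range of 1.09 to 1.48, so only library 1 of week 3 lay outside. The ratio of Nid1 to Col4a1 was 0.0776 and 0.156 in HF week 3, below the whole range of 0.177 to 0.499 of the 22 other libraries. It was 0.264, 0.177 and 0.246 in HF week 5, 0.264 to 0.303 in control and 0.327 to 0.419 in Recovery week 19. Both HF groups thus lay at or below the lowest control, and every recovery library, from week 7 to week 19, lay above the highest. The ratios were chosen by hand and not tested, and the share of gene pairs that separate likewise was not counted. At weeks 7, 9 and 13 the mean of Col4a1 was low, whereas at weeks 11 and 19 that of Nid1 was high.

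The ratio of perlecan to Col4a1 was 1.10 and 0.898 in HF week 3 and 1.14 to 2.32 in the other libraries. Col18a1 to Col15a1 was 0.342 and 0.314 in HF week 3 and 0.496, 0.297 and 0.191 in HF week 5, against 0.141 to 0.225 in control. Library 3 of HF week 5 was within the control range for this ratio, whereas libraries 1 and 2 were above it. Recovery week 19 had 0.117 to 0.256.

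**Figure D4:**
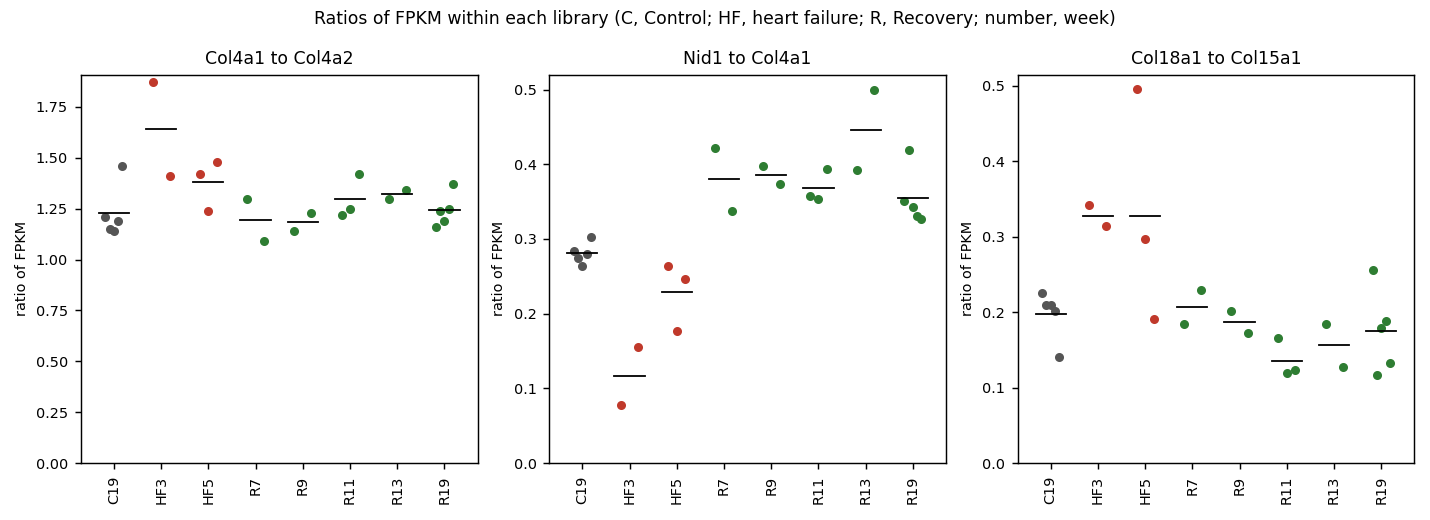
Ratios of FPKM within each library (vertical axes, linear and from 0) for Col4a1 to Col4a2, Nid1 to Col4a1 and Col18a1 to Col15a1, by group (C, Control; HF, heart failure; R, Recovery; the number is the week). Points are libraries and bars are group means; Nid1 to Col4a1 is lowest in HF week 3, at 0.0776 and 0.156.

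Levels of the members across libraries are described by Pearson's r of log2(FPKM + 0.5), over libraries that share groups and scale. Col4a1 and Col4a2, the pair with the shared bases printed above, had r = 0.949 over 24 libraries and 0.899 over the 22 outside HF week 3. It was the highest r of any pair of the 9 genes in both sets. Nid1 and Nid2 had 0.624 and 0.568. Several other pairs rested on HF week 3: Col4a1 and Hspg2 had 0.832 with it and 0.377 without, Col4a1 and Col18a1 0.746 and 0.216, and Col15a1 and Hspg2 0.548 and -0.371.

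Among all other genes tested, those most like Col4a1 by the same r over 24 libraries were Eln, the gene of elastin (0.922), Clip2 (0.919), Fam129b (0.906), F11r (0.898) and Mprip (0.883). Without HF week 3 these 5 had r of 0.591 to 0.742. Those most like Col15a1 were Col6a1 (0.887), which encodes a chain of collagen VI, Vcan (0.886), the gene of versican, Emp1 (0.884), Col3a1 (0.883), which encodes collagen III, and Mmp2 (0.882), a gelatinase. Without HF week 3 they had r of 0.680 to 0.825, a range that overlapped that of the 5 genes most like Col4a1.

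Other genes of the basement membrane and of collagen IV handling were counted by list, and these counts stand beside 23.1% of all genes tested called higher and 27.6% lower than control in HF week 3, and 11.6% higher and 12.4% lower in HF week 5. Of 8 laminin chains tested, 3 exceeded control and 1 lay below it at HF week 3, and 1 was higher at HF week 5. The list medians were 0.24 and 0.01. Lama4, a chain of endothelial basement membranes, had 9.47 ± 1.44 FPKM (SD, n = 5) in control and 14.1 ± 1.71 (n = 3) in HF week 5, without overlap (log2 fold change 0.55, SE 0.122, adjusted p = 0.00338). It returned to 9.73 ± 0.783 (n = 5) in Recovery week 19, a log2 fold change of -0.51 against HF week 5 (adjusted p = 0.00574).

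Of 10 other basement membrane proteins tested, 4 were higher and 2 lower in HF week 3 and 2 were higher and 3 lower in HF week 5. Smoc1 and Smoc2, which encode related calcium-binding matrix proteins, moved in opposite directions. Smoc2 had 13.6 ± 3.33 FPKM in control and 3.17 ± 2.59 in HF week 5 (log2 fold change -2.17, adjusted p = 0.000315), and 19.1 ± 6.68 in Recovery week 19. Smoc1 had 0.758 ± 0.351 FPKM in control and 6.85 ± 6.93 in HF week 5 (log2 fold change 2.19, adjusted p = 0.00075), with 2.66 in the lowest HF library and 14.9 in the highest. Tinagl1 was lower in HF week 5 (40.4 ± 4.06 against 61.1 ± 9.01 FPKM, log2 fold change -0.59, adjusted p = 0.0157). Ntn4, which encodes a netrin that binds laminin, was called only in Recovery week 19 against HF week 5 among the 3 comparisons of weeks 5 and 19 (log2 fold change 1.01, adjusted p = 0.0201).

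Of 11 genes for the synthesis and crosslinking of collagen IV, 4 were higher and 2 lower in HF week 3, and 0 were higher and 2 lower in HF week 5. Pxdn, the gene of peroxidasin, which crosslinks collagen IV trimers, had 19.3 ± 0.841 FPKM (n = 2) in HF week 3 and 11.03 ± 0.333 in control, a log2 fold change of 0.78 (adjusted p = 7.98e-05); in HF week 5 it was 0.23 (adjusted p = 0.138). Glt25d1, which encodes a collagen galactosyltransferase, was lower in HF week 3 (log2 fold change -0.72) and in HF week 5 (-0.69, adjusted p = 0.00639), and P4ha2, which encodes a prolyl 4-hydroxylase subunit, was lower in HF week 5 (-0.48, adjusted p = 0.0153).

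Of 9 receptors for basement membrane proteins tested, 2 were higher and 1 lower in HF week 3 and 1 was higher and 1 lower in HF week 5. Dag1, the gene of dystroglycan, which binds laminin and perlecan, had 26.6 ± 9.81 FPKM in control, 3.399 ± 0.366 in HF week 3 and 4.46 ± 0.735 in HF week 5, and 26.3 ± 6.26 in Recovery week 19. Its log2 fold change was -2.35 in HF week 5 against control (adjusted p = 8.62e-05) and 2.41 in Recovery week 19 against HF week 5. The integrin genes Itgb4 and Itga7 were lower in Recovery week 19 than in HF week 5, by log2 fold changes of -1.79 (adjusted p = 0.00207) and -0.54 (adjusted p = 0.0236).

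Of a list of 7 genes of matrix proteases and heparanase, an enzyme that cleaves heparan sulfate, 6 were higher and 1 lower in HF week 3 and 1 was higher in HF week 5. That one was Ctsl, the gene of cathepsin L, an enzyme known to release endostatin, with 66.7 ± 3.13 FPKM in control and 85.4 ± 6.17 in HF week 5 (log2 fold change 0.35, adjusted p = 0.0323). In Recovery week 19 against control 0 genes of these 5 lists, which had 8, 10, 11, 9 and 7 genes tested, were called in limma, as were 0.0235% of all genes, and 5 had an unadjusted p under 0.05, as did 2.88% of all genes.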

How the data were processed

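Poly(A)-enriched RNA of mouse hearts was sequenced from both ends. Per the labels and the methods, the authors aligned the reads with TopHat to the mouse genome mm9 (MGSCv37) and calculated expression with Cuffdiff; the deposited values are FPKM for 29955 genes by symbol. The gene annotation, strand and scaling between libraries are not given in the sources used here, and any error made in alignment or scaling remains in the values. The group of a column was read from the week in its name. Left out were 5 columns named for week 5 controls, since only 4 such samples are labelled, so Control week 19 served as control throughout. Recovery week 9 has 2 columns for 3 labelled samples.

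A mean of 0.5 FPKM or more over 24 libraries was required for testing, which left 12759 genes. Their log2(FPKM + 0.5) entered limma 3.58.1 (R 4.3.3) as one model of 8 group means with 16 residual degrees of freedom, two-sided moderated tests and a trended eBayes prior. P-values were adjusted over all genes tested by the Benjamini-Hochberg method, separately in each of 13 comparisons, and a gene was called at an adjusted p under 0.05. Standard errors are those of the moderated fit. The methods state a p under 0.05 without naming an adjustment, and counts at an unadjusted p under 0.05 are given where the adjusted count is 0. Relative depth came from the steps between low values of genes above 0 in at most 8 libraries; absolute depth cannot be had from FPKM, and counting error was not estimated. The calculations were tested on simulated data. Tables and figures used pandas 2.3.3, numpy 2.4.6 and matplotlib 3.10.9 under Python 3.11.15.

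The members, the gene lists and the marker lists were chosen with earlier results of these data known. All members are named; from each list of basement membrane genes, at most the 4 largest changes among those called in a comparison between HF week 5 and the groups of week 19, or between these; and for Col4a1 and Col15a1 the 5 genes with the highest Pearson r. The atrial, mesothelial and adipocyte genes and Myh6 were singled out after their values were seen. Alternatives were pseudocounts of 0.1 and 1, no filter, a mean of at least 1 FPKM, median centring, quantile normalization, only the compared groups in the fit, the unadjusted p, and leaving out each library in turn.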

Additional observations from a re-analysis of the deposited data

Results flagged for a closer look

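Nid1 in Control week 19 had 1 library, at 15.1 FPKM, far above the other 4, which had 13.1 to 13.7. Of 20 groups of 5 libraries examined for such a gap this was the only one, and about 1 in 20 is found by chance.

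Effects against the common control differed between weeks for several members, as the direct comparisons with HF week 5 in limma show. From HF week 5 to HF week 3 the log2 fold change was higher by 1.26 for Col4a1, 1.02 for Col4a2, 1.10 for Col4a4, 0.79 for Col4a5, 0.90 for Col15a1, 0.95 for Col18a1 and 0.75 for Hspg2. Recovery week 7 differed from HF week 5 by -0.60 for Col4a1, -0.57 for Col15a1 and -1.0 for Col18a1. Recovery week 9 differed by -0.56 for Col4a1 and -0.82 for Col18a1, week 11 by -0.92 for Col18a1 and 0.59 for Nid1, and week 13 by -0.61 for Col4a1 and -0.91 for Col18a1. Recovery week 19 differed by -0.81 for Col18a1 and 0.47 for Nid1. All of these comparisons share the 3 HF week 5 libraries, which differ among themselves in atrial, mesothelial and adipocyte genes.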

How the results depend on the processing

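Of 368 alternative values for the 27 gene results called, 296 kept their direction and their call, 71 kept their direction and lost the call, and 1 changed sign: Nid1 in Recovery week 19 against HF week 5, at -0.048 with HF week 5 library 3 alone. The unadjusted p, an alternative for each of the 27 results, could not lose a call, so 27 of the 296 were fixed in advance. It is also among the alternative analyses counted for single genes above. A further 118 values of genes not called changed sign without a call. The fits with HF week 5 library 3 alone, without the HF week 3 libraries, and with libraries rescaled without their 10 highest genes were chosen after seeing the data. The cause of these changes was not tested.

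The count of members called in HF week 5 against Control week 19 (2) became 1 without the filter, with median centring, with library 3 alone and with rescaling, and was 1 to 2 with each library left out. Col15a1 lost its call with each library left out, so a count of 2 there holds another gene. With library 3 alone the 1 gene was Col4a1, which had not been called. In Recovery week 19 against HF week 5 (2) it was 1 with only the compared groups in the fit and with rescaling, and 1 to 2 with each library left out. With library 3 alone it was also 1, but both calls were lost and Col4a1 was gained. In HF week 3 against HF week 5 (7) it was 4 with library 3 alone and 3 to 7 with each library left out. Against HF week 5, the count at Recovery week 7 (3) was 2 with median centring, where Col4a1 lost its call (-0.55, adjusted p = 0.0502), 0 with rescaling and 0 to 3 with libraries left out. At week 9 (2) it was 1 with median centring and with library 3 alone, 0 with rescaling and 0 to 1 with libraries left out. At week 11 (2) it was 0 with library 3 alone, 0 with rescaling and 0 to 2 with libraries left out. At week 13 (2) it was 1 with median centring and with library 3 alone, 5 at the unadjusted p, 4 without the HF week 3 libraries, 0 with rescaling and 0 to 2 with libraries left out. Over weeks 3, 7, 9, 11 and 13 together, 16 calls became 8 with library 3 alone and 6 with rescaling. Against control the unadjusted p gave 3, 1, 2, 2 and 2 calls at Recovery weeks 7, 9, 11, 13 and 19 in place of 0, and 15 in place of 7 over weeks 3, 7, 9, 11 and 13.

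No paired analysis was possible because the columns carry no replicate letters of the labels and animals of different weeks are different animals. With a library left out of a group of 2, the lone library was assumed to vary like the other groups. Depth is known only in relative terms, so the lowest members, Col4a3 and Col4a4, carry an unknown counting error.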
